A study of Arabidopsis thaliana with 16 samples.

Results

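The LHCB genes of Arabidopsis thaliana encode the chlorophyll a/b-binding proteins of the photosystem II antenna. The 10 loci described here, out of 40421 genes counted, were taken by name: LHCB1.1, LHCB1.2, LHCB1.3, LHCB2.1, LHCB2.2, LHCB3, LHCB4.1, LHCB4.2, LHCB5 and LHCB6. The counts of all transcripts of a locus were summed. Total RNA was sequenced in 8 groups with 2 libraries in each. Col-0 gave 6 of them: dry seeds (DS), seeds kept in cold dark water (stratified) for 24 h (S24) or 72 h (S72), and germinating seeds or seedlings after 6 h (L6), 26 h (L26) or 57 h (L57) of continuous light in shaken liquid culture. The other groups, rrp4-2 and hen2-4, were taken at 57 h of light from lines in the Col-0 background. Seeds of the light groups had first been stratified, then moved from cold dark water to warmer culture medium in the light. Light, warmth and medium therefore cannot be told apart in L6 against S72. RRP4 encodes a core subunit of the RNA exosome, which degrades RNA from its 3′ end. HEN2 encodes an RNA helicase that works with the exosome in the nucleus. Libraries came from whole seeds or whole seedlings, so that fewer cells of a type and less RNA per cell cannot be told apart. The labels do not say whether the paired libraries came from separate cultures, and p-values measure only the spread between these libraries.

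Light-harvesting proteins bind chlorophyll and carotenoids in the thylakoid membrane and pass absorbed energy to the photosystem II core. LHCB1, LHCB2 and LHCB3 form the major trimeric antenna, LHCII. LHCB4 (CP29), LHCB5 (CP26) and LHCB6 (CP24) are monomers that link the trimers to the core. The genes lie in the nucleus, and their transcription is known to respond to light, the circadian clock and the state of the plastid.

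The libraries held 75618077 to 266418636 estimated counts. Chloroplast features held 4.0% to 6.2% of the counts up to L6, 10.4% and 11.3% at L26, 47.5% and 49.7% in rrp4-2, 47.0% and 46.6% in hen2-4 and 41.2% and 43.4% at L57. DS replicate 1 stood apart in its nuclear rRNA, at 12.3% of counts. Levels are given in CPM, the counts per 1000000 counts of a library after TMM scaling, and the log2 fold changes, standard errors (SE) and Benjamini-Hochberg adjusted p-values come from edgeR's quasi-likelihood test on 28824 genes. A gene was called at an adjusted p under 0.05. Of the genes tested, the median log2 fold change was 0.22 for S24 against DS, which moved by -0.15 with DESeq2 size factors and by 0.22 without organellar and rRNA features. For L57 against DS it was 0 and moved by 0.17 and 0.24 under the same alternatives, and by 0.40 when only those 4 libraries were fitted. These shifts are small beside the changes of the LHCB genes in the light. With DESeq2 size factors the median moved by -0.09 for rrp4-2 against L57 and by -0.08 for hen2-4 against L57. The smallest LHCB changes there were -0.37 for LHCB4.1 in rrp4-2 and -0.02 for LHCB6 in hen2-4. Over the alternative fits these ran from -0.53 to -0.37 and from -0.16 to -0.02. The shift is thus not small beside the smallest changes in hen2-4.

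HEN2 RNA was higher, not lower, in the libraries labelled hen2-4. It had 80.9 and 78.2 CPM in the libraries labelled hen2-4 against 17.8 and 17.8 CPM in L57, a log2 fold change of 2.16 (SE 0.08, edgeR adjusted p = 8.2e-09). In rrp4-2 it had 23.8 and 19.5 CPM. RRP4 had 7.72 and 5.63 CPM in rrp4-2 against 6.28 and 5.59 CPM in L57. The sources used here give the position of neither lesion, and counts over the whole gene do not check the labels. In all that follows hen2-4 stands for the libraries labelled hen2-4, and every direction given for it rests on that label. Markers of green tissue (RBCS1A, PSBO1, PSAD1 and PETC) summed to 8919 and 10150 CPM in rrp4-2, to 11790 and 12800 CPM in hen2-4 and to 10830 and 12860 CPM in L57. None of the 4 was at 0 in any library. Markers of the maturing seed (CRA1, CRU3, OLEO1 and EM1) summed to 80230 and 82390 CPM in DS, to 18080 to 24180 CPM from S24 to L6, to 1149 and 742 CPM at L26, to 58.9 and 44.3 CPM in rrp4-2, to 23.5 and 25.5 CPM in hen2-4 and to 34.7 and 46.5 CPM in L57. Markers of the endosperm (EXPA2, GASA6 and CP1) summed to 3.51 and 2.86 CPM in DS, 1035 and 1040 CPM in L6, 2337 and 2192 CPM in L26, 156.7 and 165.5 CPM in rrp4-2, 207.7 and 201.7 CPM in hen2-4 and 634 and 576.6 CPM in L57, with 1 of the 3 called lower in each mutant. Markers of the root endodermis (CASP1 and MYB36) summed to less than 1 CPM in every library up to L26, where CASP1 was at 0, to 19.3 and 23.1 CPM in rrp4-2, to 16.5 and 18.8 CPM in hen2-4 and to 25.7 and 25.5 CPM in L57. These sums moved with the stages. In both mutants the sums of the endosperm and of the root endodermis lay below both L57 libraries. So did the sum of green tissue in rrp4-2 and that of the maturing seed in hen2-4. Most of the endosperm sum was CP1, with 110.4 and 105.3 CPM in rrp4-2, 179.3 and 171.1 CPM in hen2-4 and 593.9 and 526.9 CPM in L57. In rrp4-2 GASA6 (40.4 and 55.15 CPM) and EXPA2 (5.91 and 5.05 CPM) overlapped L57. The L57 libraries had 35.9 and 42.4 CPM of GASA6 and 4.25 and 7.32 CPM of EXPA2. In hen2-4 GASA6 and EXPA2 lay below both L57 libraries. The part of these markers in the LHCB levels was not tested.

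Positions are those of the TAIR10 genome. LHCB1.2 (AT1G29910, chr1:10472280-10473502, minus strand), LHCB1.1 (AT1G29920, chr1:10474656-10475969, minus strand) and LHCB1.3 (AT1G29930, chr1:10477885-10479114, plus strand) lie side by side, LHCB1.2 and LHCB1.1 in the same direction with 1153 bases between them, and LHCB1.3 facing away from LHCB1.1 across 1915 bases. Their coding sequences are 95.7% to 96.4% identical. LHCB2.1 (AT2G05100, chr2:1822990-1824480, minus strand) and LHCB2.2 (AT2G05070, chr2:1799234-1800472, minus strand) lie 22517 bases apart and are 96.6% identical. LHCB3 is AT5G54270 (chr5:22038165-22039568, plus strand), LHCB4.1 AT5G01530 (chr5:208866-210548, plus strand), LHCB4.2 AT3G08940 (chr3:2717557-2718923, plus strand), LHCB5 AT4G10340 (chr4:6408007-6409849, plus strand) and LHCB6 AT1G15820 (chr1:5446462-5447880, minus strand). Reads that mapped to several places had been kept at 1 of them at random. No stretch of 125 bases, the read length of these libraries, in the transcripts of LHCB1.1 to LHCB1.3 occurred anywhere else in the genome. LHCB2.1 and LHCB2.2 shared 54 such stretches, 4.66% of those of LHCB2.1 and 6.03% of those of LHCB2.2. Values of these copies are therefore given also as sums, LHCB1 for 3 loci and LHCB2 for 2.

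The 250 bases before the start of each gene were read from the RefSeq genome TAIR10.1. All 10 loci were found in its annotation. Upstream sequences of the copies were far less alike than their coding sequences, with 43.9% to 50.4% identity among the LHCB1 genes and 62.5% between LHCB2.1 and LHCB2.2. The sequences of 6 genes are shown because their levels set them apart below: the neighbours LHCB1.1 and LHCB1.3, which face away from each other, LHCB3, the gene called lower in both mutants, LHCB4.1 and LHCB4.2, the pair with most counts in dry seeds, and LHCB6. Capitals mark matches, on either strand, to the G-box CACGTG, the I-box GATAAG, the CCA1-binding sequences AAAAATCT and AACAATCT, the evening element AAAATATCT, the CCAAT box CCAAT and the TATA box TATAAA. No 2 matches overlapped.
LHCB1.1: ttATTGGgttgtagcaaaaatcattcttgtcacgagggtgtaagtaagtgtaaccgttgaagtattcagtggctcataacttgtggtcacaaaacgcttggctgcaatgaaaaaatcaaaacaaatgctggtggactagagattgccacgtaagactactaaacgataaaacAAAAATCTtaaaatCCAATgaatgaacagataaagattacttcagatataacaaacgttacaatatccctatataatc
LHCB1.3: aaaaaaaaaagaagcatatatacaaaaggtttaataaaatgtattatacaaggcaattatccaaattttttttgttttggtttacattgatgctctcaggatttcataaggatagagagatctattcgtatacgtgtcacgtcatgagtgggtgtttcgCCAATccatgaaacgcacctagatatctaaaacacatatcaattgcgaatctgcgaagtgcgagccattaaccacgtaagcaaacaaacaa
LHCB3: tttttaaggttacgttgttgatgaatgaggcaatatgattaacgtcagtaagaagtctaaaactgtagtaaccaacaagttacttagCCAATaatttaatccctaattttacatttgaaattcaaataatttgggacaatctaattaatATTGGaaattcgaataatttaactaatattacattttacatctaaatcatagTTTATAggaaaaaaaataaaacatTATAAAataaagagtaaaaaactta
LHCB4.1: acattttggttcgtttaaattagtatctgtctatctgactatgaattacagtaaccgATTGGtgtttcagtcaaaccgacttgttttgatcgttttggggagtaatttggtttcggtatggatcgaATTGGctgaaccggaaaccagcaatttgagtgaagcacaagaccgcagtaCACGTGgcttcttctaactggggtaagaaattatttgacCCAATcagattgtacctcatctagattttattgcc
LHCB4.2: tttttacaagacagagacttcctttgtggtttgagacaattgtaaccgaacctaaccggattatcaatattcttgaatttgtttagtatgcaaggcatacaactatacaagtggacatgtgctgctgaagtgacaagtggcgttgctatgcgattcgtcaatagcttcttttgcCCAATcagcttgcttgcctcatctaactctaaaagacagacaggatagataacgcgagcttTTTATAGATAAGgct
LHCB6: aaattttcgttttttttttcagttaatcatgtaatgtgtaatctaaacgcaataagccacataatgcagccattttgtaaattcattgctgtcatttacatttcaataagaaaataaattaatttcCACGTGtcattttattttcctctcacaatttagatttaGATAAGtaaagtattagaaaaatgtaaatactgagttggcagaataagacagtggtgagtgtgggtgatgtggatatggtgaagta

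LHCB4.1 (chr5:208616-208865, plus strand) and LHCB6 (chr1:5447881-5448130, minus strand) each held 1 G-box, which 6.49% of all 27443 promoters of this length held. The I-box, in 12.3% of all promoters, was found in LHCB2.1, LHCB4.2 (chr3:2717307-2717556, plus strand) and LHCB6. In LHCB4.2 the last run of 12 capitals is a TATA box on the minus strand followed directly by an I-box. The sequence AAAAATCT, in 6.69% of promoters, was found only in LHCB1.1 of the 10 genes (chr1:10475970-10476219, minus strand). AACAATCT (1.83% of promoters) and the evening element (2.36%) were in none. LHCB1.3 (chr1:10477635-10477884, plus strand) held a single CCAAT box, a sequence found in 9 of the 10 genes, not in LHCB6, and in 46.0% of all promoters. LHCB3 (chr5:22037915-22038164, plus strand) and LHCB4.2 held a TATA box, against 47.4% of all promoters. A match of letters is not evidence of a bound site.

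The LHCB transcripts were scarce in seeds and abundant in the seedling. Summed over the 10 loci, they had 91.6 ± 8.04 CPM in DS (SD, n = 2, as for every mean below), 20.6 ± 0.24 in S24, 33.6 ± 1.81 in S72, 51.9 ± 12.9 in L6, 322.9 ± 5.25 in L26 and 25510 ± 3212 in L57. They took 0.00577% and 0.00718% of all counts in the DS libraries and 2.25% and 2.39% in the L57 libraries. The sum fell first, came back slowly in the dark, and gained most of its size in the last interval. All 10 genes passed the filter on low counts.

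**Figure D1:**
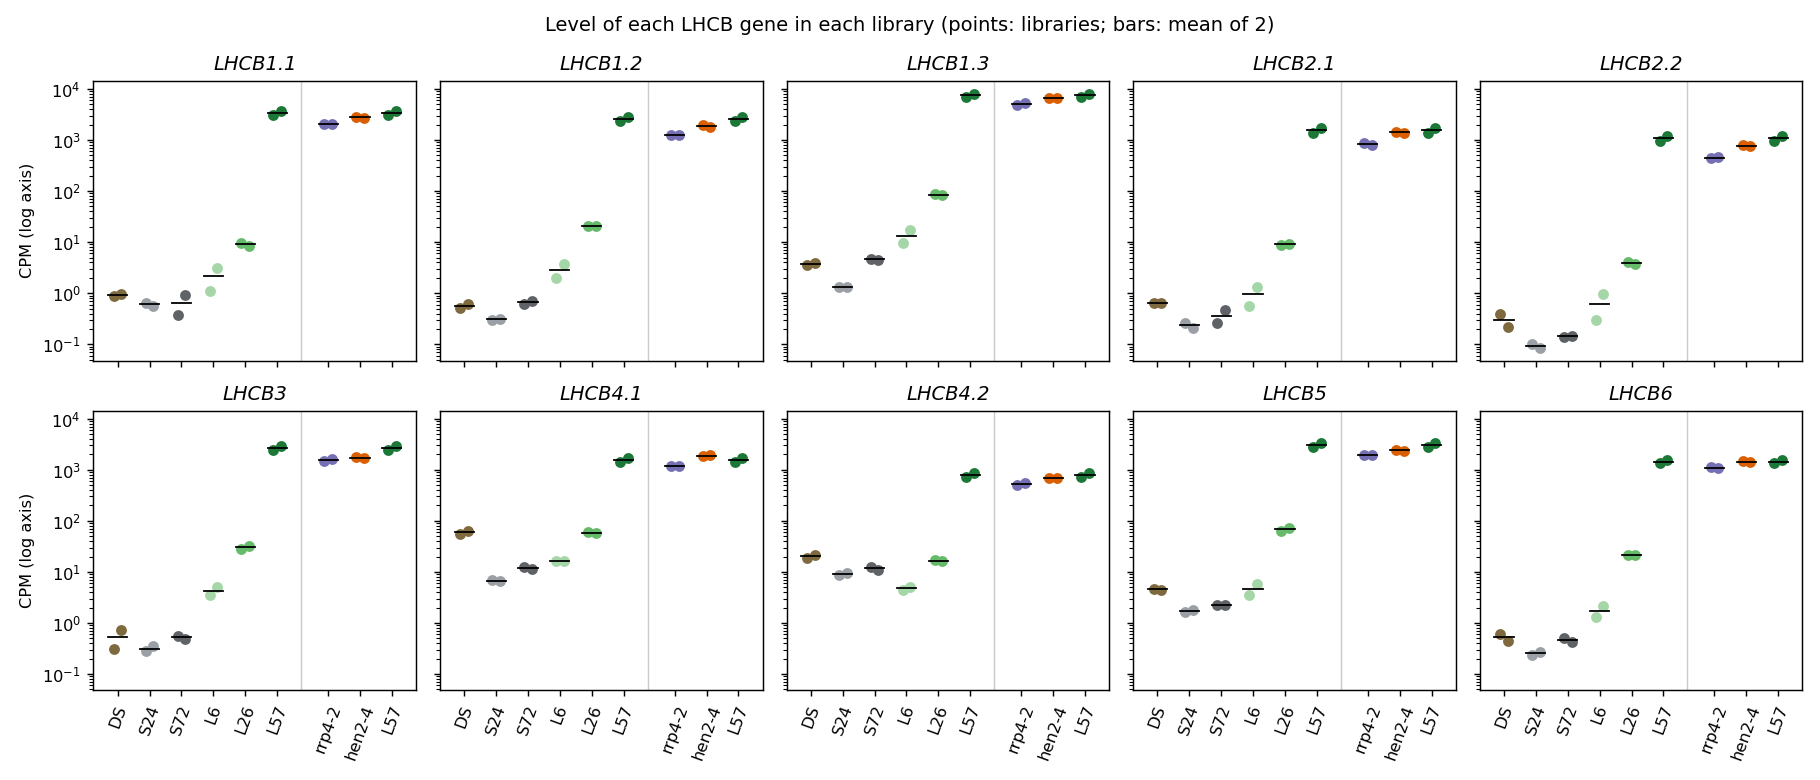
CPM of each LHCB gene in the 16 libraries, on a log axis, with 1 panel per gene. Points are libraries and bars are the mean of 2. Groups run from DS to L57, and after a gap come rrp4-2, hen2-4 and L57 drawn again. LHCB4.1 and LHCB4.2 start at 19.0 CPM or more in DS, LHCB1.3 and LHCB5 between 3.59 and 4.69 CPM and the other 6 genes below 1 CPM, and all 10 stand far above every earlier stage at 57 h of light.

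In the first day of imbibition the LHCB transcripts held by the dry seed declined. In S24 against DS, 9 of the 10 genes fell and none rose, where 24.8% of all genes tested were called lower and 28.9% higher. LHCB4.1, the more abundant of the CP29 genes, had 6.94 and 6.59 CPM in S24 against 55.3 and 64.3 CPM in DS. The log2 fold change was -3.14 (SE 0.11, edgeR adjusted p = 8.57e-11), which made it 8.84-fold lower. LHCB4.2, its paralog, had 8.73 and 9.34 CPM in S24 against 19.0 and 21.1 CPM in DS, a log2 fold change of -1.15 (SE 0.11, edgeR adjusted p = 1.26e-06). The groups did not overlap for either gene, and their order was turned round: LHCB4.1 was above LHCB4.2 per kilobase in DS and below it in S24.

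The other falls were of genes with low counts. LHCB1.3 had 1.3 and 1.3 CPM in S24 against 3.59 and 3.83 CPM in DS (log2 fold change -1.52, SE 0.21, edgeR adjusted p = 4.22e-05), and LHCB5 1.68 and 1.78 against 4.69 and 4.52 CPM (-1.41, SE 0.19, edgeR adjusted p = 3.02e-05). LHCB2.1 (-1.45), LHCB2.2 (-1.60), LHCB6 (-1.0), LHCB1.2 (-0.89) and LHCB3 (-0.84) were called at edgeR adjusted p-values of 0.0106 to 0.0476, from 16 to 61 counts per DS library. LHCB3 had 0.279 and 0.349 CPM in S24 against 0.315 and 0.735 CPM in DS, so that the groups overlapped. Its call rests on DS replicate 2: without that library its log2 fold change was 0.01 and 5 of the 10 genes were called. Also 5 were called without organellar and rRNA features, beside 15381 of 27889 genes, or when only the 4 libraries were fitted, beside 14445 of 23996. LHCB1.1 had 0.642 and 0.571 CPM in S24 against 0.887 and 0.964 CPM in DS and was not called (log2 fold change -0.62, SE 0.50, edgeR adjusted p = 0.315). Relative to the median of all genes, which was positive here, each of these differences would be larger in size.

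Between 24 and 72 h in the dark, 6 genes changed and all 6 rose, against 53.8% of all genes called in either direction and 27.7% called lower. The largest change was that of LHCB1.3, the most abundant LHCB gene of the seedling, with 4.69 and 4.55 CPM in S72 against 1.3 and 1.3 CPM in S24 (log2 fold change 1.83, SE 0.20, edgeR adjusted p = 5.83e-06). LHCB1.2 (1.1), LHCB6 (0.87), LHCB4.1 (0.84), LHCB3 (0.73) and LHCB4.2 (0.38) also rose. LHCB5, LHCB2.1, LHCB2.2 and LHCB1.1 were not called, with log2 fold changes of 0.39, 0.62, 0.61 and 0.12. The LHCB1.1 libraries of S72 lay far apart, at 0.369 and 0.943 CPM. Of all calls in this step 48.5% were higher, a share that was 34.2% without organellar and rRNA features, and for S24 against DS the share was 53.8% and 66.7% by the same 2 fits.

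The end of LHCB1.3 overlaps that of NRPA2, a subunit of RNA polymerase I on the other strand, by 108 bases. NRPA2 had 164.1 and 157.6 CPM in S72, 143.3 and 122.2 CPM in S24 and 86.9 and 94.9 CPM in DS. The sources used here do not say whether the counting used strand, so reads from the shared bases cannot be assigned with certainty, and the part of NRPA2 in the early LHCB1.3 counts was not tested. LHCB4.2 overlaps AT3G08943 on the other strand by 44 bases. That gene had 40.0 and 42.6 CPM in DS, 105.8 and 102.8 CPM in L6 and 25.5 and 22.7 CPM in L57, an order unlike that of LHCB4.2. LHCB3 shares 186 bases with ATM2, a myosin gene, and LHCB6 shares 103 bases with AT1G15810. ATM2 had 13.41 and 11.96 CPM in S72 and 22.2 and 22.15 CPM in L6, against LHCB3 means of 0.523 and 4.25 CPM. AT1G15810 had 6.24 and 6.87 CPM in S72 and 47.89 and 47.15 CPM in L6, against LHCB6 means of 0.468 and 1.74 CPM. Both neighbours thus rose in this step with the LHCB gene, and neither rose from L6 to L26. The part of the neighbours in the LHCB3, LHCB4.2 and LHCB6 counts was not tested.

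After 6 h of light in the warmer culture medium the LHCB genes no longer moved as one. In L6 against S72, 9 genes rose and LHCB4.2 fell, where 33.8% of all genes were called higher and 31.0% lower. LHCB3, the LHCII subunit found in trimers with LHCB1 and LHCB2, had 3.53 and 4.97 CPM in L6 against 0.563 and 0.483 CPM in S72. Its log2 fold change of 3.02 (SE 0.23, edgeR adjusted p = 4.59e-08) was the largest of the 10. LHCB2.2 (2.1), LHCB1.2 (2.09), LHCB6 (1.89), LHCB1.1 (1.70), LHCB1.3 (1.52), LHCB2.1 (1.38) and LHCB5 (1.06) followed. LHCB4.1 had 16.5 and 16.7 CPM in L6 against 12.7 and 11.5 CPM in S72, a log2 fold change of 0.46 (SE 0.10, edgeR adjusted p = 0.00139). LHCB4.2 had 4.42 and 5.14 CPM in L6 against 12.7 and 10.8 CPM in S72, a log2 fold change of -1.30 (SE 0.11, edgeR adjusted p = 2.35e-07), and L6 was the lowest of its 8 groups. The CP29 genes thus moved in opposite directions in this step.

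The L6 libraries differed from each other in these genes. Replicate 2 was above replicate 1 for all 10, by 1.01 times for LHCB4.1 up to 3.25 times for LHCB2.2, with a median of 1.73. Over the 16250 genes at 1 CPM or more in L6 the median of the same ratio was 0.977, and 95% of them lay between 0.835 and 1.16. LHCB1.1 had 1.12 and 3.18 CPM and LHCB2.1 0.552 and 1.34 CPM in the L6 libraries. Related genes differed too. Of 11 other light-harvesting genes, 6 were above that range: LHCB1.4 (4.8 times), LHCB1.5 (2.01), LHCA2 (1.63), LHCA1 (1.57), LHCB2.3 (1.46) and LHCA3 (1.44). The other 5 lay between 0.991 and 1.03. Of 14 genes of chlorophyll synthesis, CHLH, a subunit of the magnesium chelatase, was above it at 1.53 times and PORA, a protochlorophyllide reductase, at 2.43, while GUN4, an activator of that chelatase, was below it at 0.198. The other 11 lay between 0.872 and 1.1. LHCB1.4 and PORA had 15 to 71 counts in these libraries, under 1 CPM. Of the green markers PSAD1 was at 1.19 times, PSBO1 at 1.14, PETC at 0.938, and RBCS1A lay between PETC and PSBO1. What set these libraries apart was not tested.

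Between 6 and 26 h of light all 10 genes rose, against 30.2% of all genes called higher and 28.1% lower. LHCB5, the CP26 gene, had 62.7 and 72.9 CPM in L26 against 3.53 and 5.91 CPM in L6, a 14.4-fold increase (log2 fold change 3.85, SE 0.19, edgeR adjusted p = 2.82e-09). LHCB6, the CP24 gene, had 21.8 and 21.7 CPM in L26 against 1.32 and 2.16 CPM in L6 (log2 fold change 3.65, SE 0.18, edgeR adjusted p = 2.53e-09). These genes of monomeric antenna proteins led the step. The LHCII genes followed at 2.09 (LHCB1.1) to 3.27 (LHCB2.1), and LHCB4.1 and LHCB4.2 came last, at 1.81 each. LHCB4.1 reached 59.6 and 56.9 CPM in L26 against 55.3 and 64.3 CPM in DS, and the difference between these stages did not pass the test (edgeR adjusted p = 0.768). LHCB4.2 was lower in L26, with 16.9 and 16.5 CPM against 19.0 and 21.1 CPM in DS (edgeR adjusted p = 0.0468). The other 8 genes were all higher in L26 than in DS.

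The last interval held the largest change of every gene. In L57 against L26 all 10 rose, with log2 fold changes between 4.73 and 8.54 and a median of 6.45, against a median of -0.11 over all genes. Of all genes 29.7% were called higher and 35.5% lower. LHCB1.1 had 3122 and 3675 CPM in L57 against 9.78 and 8.50 CPM in L26. Its log2 fold change of 8.54 (SE 0.48, edgeR adjusted p = 2.99e-09), 372-fold, was the largest of the 10. LHCB1.2, 1153 bases away, had 2308 and 2776 CPM in L57 against 20.9 and 20.2 CPM in L26 (6.95, SE 0.24, edgeR adjusted p = 5.04e-11), and LHCB1.3 had 6825 and 8043 CPM against 85.9 and 85.1 CPM (6.44, SE 0.24, edgeR adjusted p = 7.53e-11). The most abundant copy at 26 h had the smallest change of the cluster, and LHCB1.1, the least abundant, had the largest. The L26 level is the base of this change, so the orders of level and change are not independent.

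LHCB2.2 (8.13, SE 0.32) and LHCB2.1 (7.40, SE 0.31), the other LHCII genes with near-identical coding sequences, came next to LHCB1.1. LHCB2.2 had 969.0 and 1186 CPM in L57 against 3.99 and 3.71 CPM in L26, and LHCB2.1 had 1383 and 1703 CPM against 8.97 and 9.24 CPM. As sums, LHCB1 rose by 6.86 (SE 0.26, edgeR adjusted p = 1.15e-10) and LHCB2 by 7.66 (SE 0.36, edgeR adjusted p = 6.14e-10) on the log2 scale, values that do not depend on how reads were divided within each sum. LHCB3 had 2386 and 2939 CPM in L57 against 28.6 and 31.8 CPM in L26 (6.46, SE 0.23). Of the monomeric antenna, LHCB6 changed by 6.05 (SE 0.19), LHCB4.2 by 5.57 (SE 0.13), LHCB5 by 5.50 (SE 0.20) and LHCB4.1 by 4.73 (SE 0.12), all below the 6 LHCII genes. The edgeR adjusted p-values of these genes lay between 3.15e-12 and 2.47e-10. The share of higher calls over all genes in this step was 45.6% and became 58.8% with DESeq2 size factors.

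**Figure D2:**
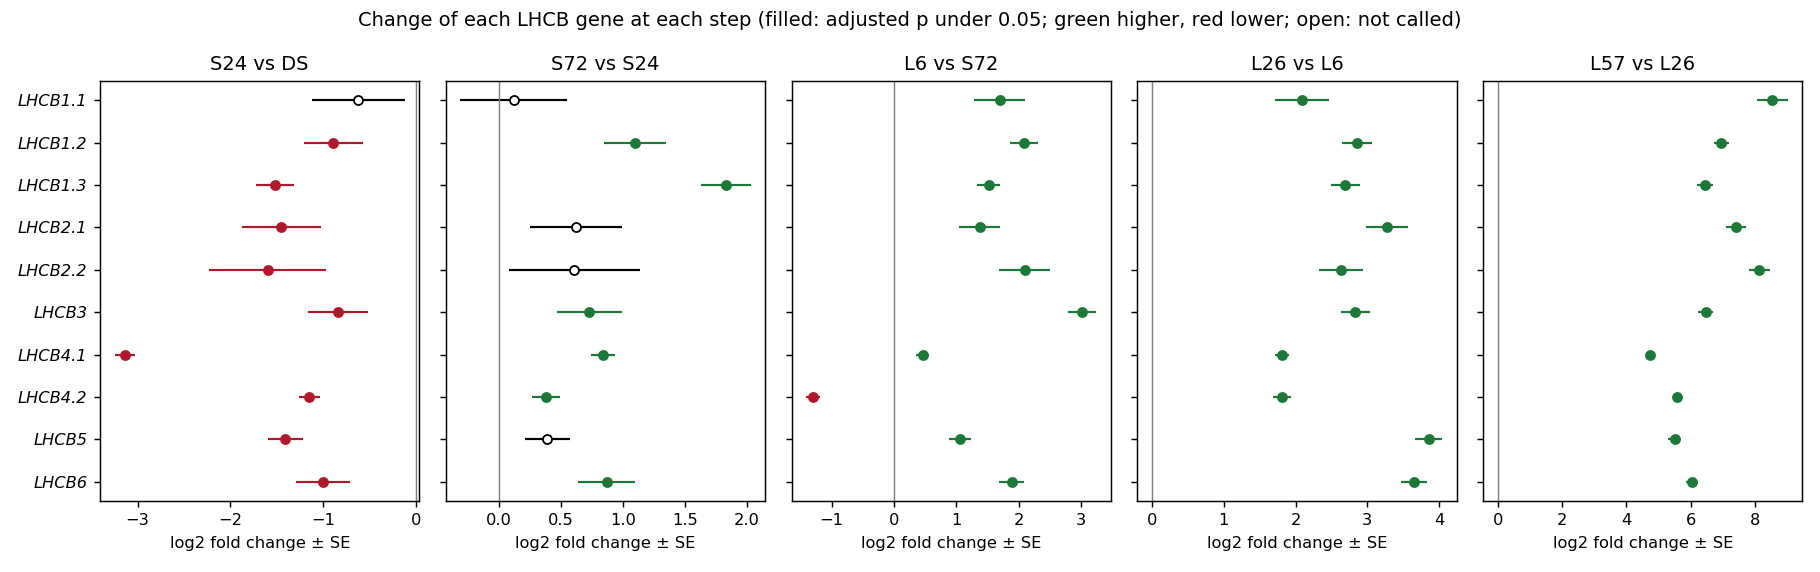
Log2 fold change with its SE for each LHCB gene over the 5 consecutive steps, 1 panel per step. Filled green points were called higher, filled red points lower and open points were not called. The horizontal axes differ between panels. Points lie left of 0 for all 10 genes in S24 against DS, LHCB4.2 alone lies left of 0 in L6 against S72, and the last step runs from 4.73 for LHCB4.1 to 8.54 for LHCB1.1.

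Over the whole course, L57 against DS, all 10 genes were higher, against 40.5% of all genes called higher and 37.7% lower. The log2 fold changes ran from 4.69 for LHCB4.1 (SE 0.12, edgeR adjusted p = 3.28e-13) and 5.31 for LHCB4.2 (SE 0.13, edgeR adjusted p = 2.66e-13) through 9.38 for LHCB5 to 12.21 for LHCB3 (SE 0.31, edgeR adjusted p = 3.73e-13). The last interval held 52.8% to 68.5% of this log2 change for 7 genes, a larger share for LHCB1.1, and 101% and 105% for LHCB4.1 and LHCB4.2, which had fallen below their dry-seed level in between. The highest mean of the 8 groups was that of L57 for 9 genes and that of hen2-4 for LHCB4.1. L57 and hen2-4 were separated for LHCB3 alone (edgeR adjusted p = 0.0206), and for the other 9 genes their order did not pass the test (edgeR adjusted p = 0.0564 to 0.991). S24 was the lowest for 9 genes. It was not separated from the next group, S72, for LHCB1.1, LHCB2.1, LHCB2.2 and LHCB5.

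The make-up of the LHCB transcripts changed with the stage. LHCB4.1 and LHCB4.2 together held 86.5% of the LHCB counts in DS replicate 1 (Wilson 95% interval 85.4 to 87.5%) and 87.7% in DS replicate 2 (87.0 to 88.4%). Their share was 76.5% in each S24 library, 72.9% and 69.2% in S72, 48.9% and 35.8% in L6, 24.0% and 22.5% in L26 and 9.08% and 9.25% in L57. The 3 LHCB1 genes took 5.8% and 5.57% in DS and 52.7% and 52.2% in L57. LHCB3 was below 1% in DS and at 8.25% and 8.15% in L6, close to its 10.3% and 10.6% in L57. LHCB5 had its highest share in L26, at 19.6% and 22.3%, against at most 12.1% in L57. The intervals cover counting error only, and with 2 libraries against 2 an exact permutation test cannot go below p = 0.33.

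**Figure D3:**
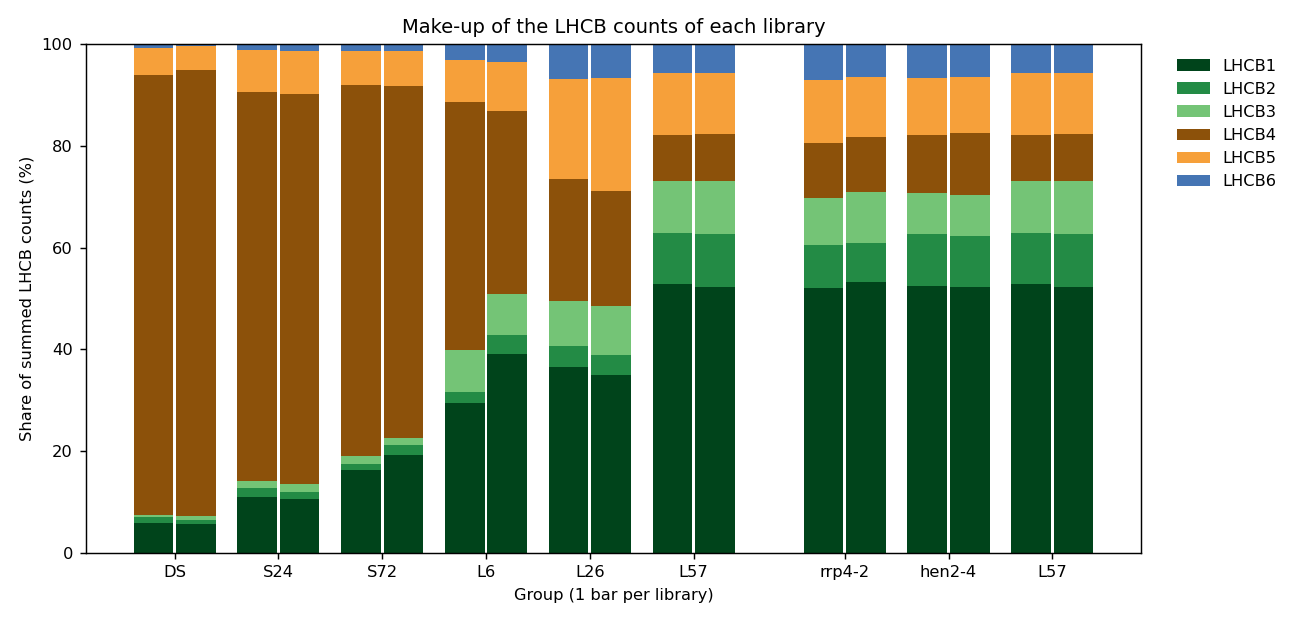
Share of the summed LHCB counts held by each family, in percent, as a stacked bar per library. LHCB1 is the sum of LHCB1.1 to LHCB1.3, LHCB2 that of LHCB2.1 and LHCB2.2, and LHCB4 that of LHCB4.1 and LHCB4.2. Bars run from DS to L57, then rrp4-2, hen2-4 and L57 drawn again. LHCB4 takes most of the bar in DS, at 86.5% and 87.7%, and 9.08% and 9.25% in L57, where LHCB1 takes 52.7% and 52.2%.

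Per kilobase of transcript the order of the genes at 57 h was led by LHCB1.3, at 6044 ± 700.1 CPM per kilobase in L57, with LHCB1.1 (2586 ± 297.6), LHCB5 (2212 ± 266.2), LHCB3 (2144 ± 314.6) and LHCB1.2 (2079 ± 270.6) after it. LHCB5, LHCB3 and LHCB1.2 lay within 1 SD of each other. LHCB4.2 was the lowest, at 626.2 ± 87.3. In DS the order was led by LHCB4.1 at 42.8 ± 4.56, then LHCB4.2 at 15.9 ± 1.09, and the other 8 genes were at 3.32 or below. LHCB1.3 was second only from L6 on, and first from L26. LHCB4.2 was counted as 2 transcripts that differ in splicing. Transcript 1 held 6.79% to 26.7% of its counts in every library, with no stage apart from the rest. LHCB2.1 also had a second transcript, which had no counts before L57 and 0.148% of the counts of the locus at most.

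Genes of the same pathway, from lists of known function, mostly rose in the last interval too. Of 11 other light-harvesting genes, all rose in L57 against L26 (median log2 fold change 5.57), beside 29.7% of all genes called higher. LHCB1.4, another LHCB1 gene, had 1309 and 1561 CPM in L57 against 0.291 and 0.273 CPM in L26, a log2 fold change of 12.31 (SE 0.41, edgeR adjusted p = 3.77e-11), above that of every gene of the 10. It had not been called between L6 and L26 (-0.06, edgeR adjusted p = 0.963), when the other LHCB1 genes rose. LHCB1.5 had 3930 and 4899 CPM in L57 against 22.6 and 22.1 CPM in L26 (7.63, SE 0.31). With these 2 loci included, LHCB1 summed to 19220 ± 2446 CPM in L57.

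Of 14 genes of chlorophyll synthesis, 13 rose in the same interval and 1 was not called (median 1.82), beside 29.7% of all genes called higher. CHLH changed most, with 2820 and 3129 CPM in L57 against 220.6 and 258.3 CPM in L26 (3.64, SE 0.20), followed by CAO (3.32, SE 0.09). CAO, the chlorophyll b enzyme, shared the fall of LHCB4.1 from DS to S24. It had 12.6 and 12.1 CPM in S24 against 106.4 and 112.5 CPM in DS, a log2 fold change of -3.15 (SE 0.09, edgeR adjusted p = 1.45e-11). In L26 its mean was still 21.8 CPM. All 5 genes that bring light-harvesting proteins to the thylakoid rose (median 0.93, led by ALB3 at 1.21 and CPSRP43 at 1.05). All 4 genes of antenna phosphorylation and energy quenching rose (median 2.36), led by the LHCII kinase gene STN7 (3.36) and PSBS, needed for rapid quenching (3.02). Of 13 regulators 7 rose and 5 fell, beside 29.7% of all genes called higher and 35.5% called lower. The falls were close to that share. CCA1 (2.34) and GLK2 (1.38), a transcription factor of chloroplast development, were at the head of the regulators. The medians of these 5 lists were all below the 6.45 of the 10 LHCB genes.

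The gene patterns most like the mean of the 10 LHCB genes were sought among 13958 nuclear genes, by Pearson's r of log2 CPM over the 16 libraries. The first 5 were LHCA4 (0.9979), LHCB1.5 (0.9977), LHCA1 (0.9977), PSAK (0.9976) and PSAO (0.9976). LHCA1 and LHCA4 encode antenna proteins and PSAK and PSAO subunits of photosystem I. Over the 12 Col-0 libraries 4 of the 5 were the same, with PSBR in place of PSAO. The libraries share stages and depth, so these values only describe likeness. Of the 10 genes, LHCB4.2 (0.9545) and LHCB4.1 (0.9727) were least like the mean, and the other 8 had 0.9909 or more.

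In rrp4-2 seedlings the LHCB transcripts were lower than in Col-0 of the same age. Their sum was 15930 ± 361.2 CPM in rrp4-2 and 25510 ± 3212 CPM in L57. In rrp4-2 against L57, 8 genes fell and none rose, where 8.54% of all genes were called lower and 18.0% higher. All 10 genes were below both L57 libraries in both rrp4-2 libraries, as were 23.0% of all genes. LHCB2.2 had 438.7 and 455.0 CPM in rrp4-2 against 969.0 and 1186 CPM in L57, a log2 fold change of -1.27 (SE 0.23, edgeR adjusted p = 0.00171), or 2.41-fold lower. LHCB1.2 had 1225 and 1235 CPM in rrp4-2 against 2308 and 2776 CPM in L57 (-1.05, SE 0.19, edgeR adjusted p = 0.00136).

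LHCB2.1 had 874.5 and 813.9 CPM in rrp4-2 against 1383 and 1703 CPM in L57 (-0.87, SE 0.24, edgeR adjusted p = 0.0166). LHCB3 had 1454 and 1601 CPM against 2386 and 2939 CPM (-0.80, SE 0.18, edgeR adjusted p = 0.0066), and LHCB5 had 1940 and 1907 CPM against 2811 and 3334 CPM (-0.68, SE 0.17, edgeR adjusted p = 0.0105). LHCB4.2 (-0.59), LHCB1.3 (-0.54) and LHCB4.1 (-0.37) were called with smaller changes. LHCB1.1 (-0.73, SE 0.34, edgeR adjusted p = 0.14) and LHCB6 (-0.41, SE 0.15, edgeR adjusted p = 0.0636) were not called. Over the alternative fits that kept both libraries of each group, LHCB1.1 had -0.89 to -0.72 and LHCB6 -0.57 to -0.41. These genes passed the test in some of those fits and not in others. The genes called here passed in all of them. The sums gave -0.68 for LHCB1 (SE 0.21, edgeR adjusted p = 0.0282) and -1.02 for LHCB2 (SE 0.27, edgeR adjusted p = 0.0144).

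The number of calls depends on single libraries. It was 3 without L57 replicate 2, 3 without rrp4-2 replicate 1 and 4 without rrp4-2 replicate 2, and LHCB1.2, LHCB2.2 and LHCB4.2 passed in every such fit, at edgeR adjusted p-values of 0.00128 to 0.0207. L57 replicate 2 was above replicate 1 for all 10 genes, by 1.17 to 1.23 times, where 95% of all genes at 1 CPM or more lay between 0.785 and 1.26. The share of higher calls over all genes in rrp4-2 against L57 was 67.9%, 39.6% with DESeq2 size factors and 48.8% without organellar and rRNA features.

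In the libraries labelled hen2-4 fewer LHCB genes differed from Col-0. Their sum was 21580 ± 482.4 CPM, against 25510 ± 3212 CPM in L57. Only LHCB3 was called, and it was lower, where 10.6% of all genes were called lower and 19.7% higher: 1 of 10 is close to this background. Both hen2-4 libraries were below both L57 libraries for 7 genes, as for 25.7% of all genes, and above them for LHCB4.1, as for 41.9% of all genes. LHCB3 had 1750 and 1691 CPM in hen2-4 against 2386 and 2939 CPM in L57 (-0.63, SE 0.18, edgeR adjusted p = 0.0206). Without either hen2-4 library no gene was called, and LHCB3 had edgeR adjusted p-values of 0.0218 to 0.141 over the fits without 1 library. With DESeq2 size factors 4 genes were called, all lower, beside 5200 of 28824 genes called lower. The share of higher calls over all genes was 42.6% with that scaling, 51.2% without organellar and rRNA features and 65.0% in the fit reported here. LHCB4.1 was the only gene with a positive difference in the main fit, with 1823 and 1910 CPM in hen2-4 against 1393 and 1695 CPM in L57 (0.27, SE 0.10, edgeR adjusted p = 0.0564). Without 1 library its log2 fold change was 0.15 to 0.43, and that of LHCB3 -0.76 to -0.46. Each of these genes passed the test in some of these fits and not in others, LHCB4.1 as higher and LHCB3 as lower. The L57 libraries are shared by both mutant comparisons, so these do not give independent evidence.

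The mutants were therefore compared with each other. In rrp4-2 against hen2-4, 3 genes were lower and none higher, against 4.55% of all genes called lower and 4.96% higher. LHCB4.1 had 1189 and 1202 CPM in rrp4-2 against 1823 and 1910 CPM in hen2-4, a log2 fold change of -0.64 (SE 0.10, edgeR adjusted p = 0.0015). LHCB2.2 (-0.80, SE 0.23, edgeR adjusted p = 0.0483) and LHCB4.2 (-0.38, SE 0.11, edgeR adjusted p = 0.0408) were the others. Without any single library LHCB4.1 alone was called, at edgeR adjusted p-values of 0.00936 to 0.0182. All 10 genes were below both hen2-4 libraries in both rrp4-2 libraries, as were 26.0% of all genes, and the 7 that were not called had log2 fold changes of -0.17 (LHCB3) to -0.74 (LHCB2.1).

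**Figure D4:**
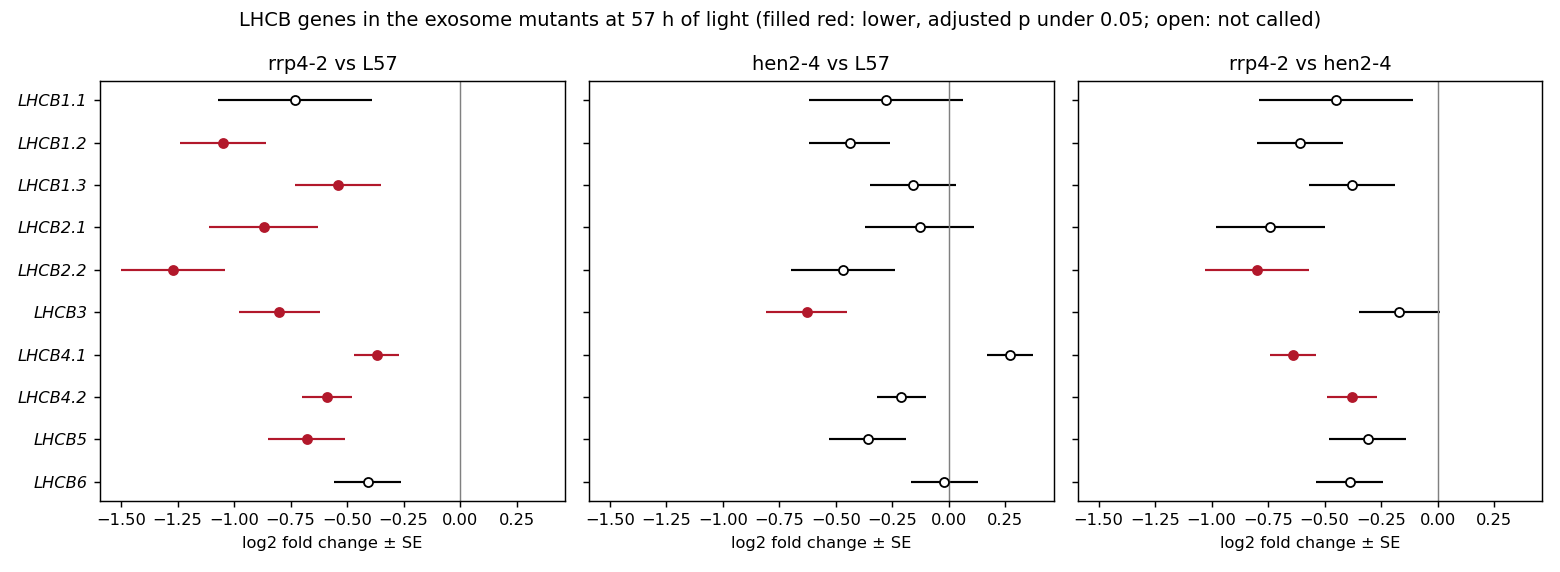
Log2 fold change with its SE for each LHCB gene in rrp4-2 against L57, hen2-4 against L57 and rrp4-2 against hen2-4, on a common horizontal axis. Filled red points were called lower and open points were not called. In rrp4-2 against L57 all 10 points lie left of 0, from -0.37 for LHCB4.1 to -1.27 for LHCB2.2, and in hen2-4 against L57 LHCB4.1 lies right of 0, at 0.27.

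The share of LHCB1 was close to the same in the 3 groups of seedlings, and the shares of LHCB2, LHCB3, LHCB4.1 and LHCB6 were not. The share of LHCB2 stood apart in rrp4-2 only. LHCB1 held 52.0% and 53.1% of LHCB counts in rrp4-2, 52.4% and 52.3% in hen2-4 and 52.7% and 52.2% in L57. Its copies did not all keep their share. LHCB1.2 held 7.82% and 7.63% in rrp4-2, 8.91% and 8.48% in hen2-4 and 9.93% and 9.99% in L57. LHCB1.3 held 31.3% and 32.7% in rrp4-2, 30.6% and 30.9% in hen2-4 and 29.4% and 29.0% in L57. LHCB2 held 8.38% and 7.84% in rrp4-2, 10.3% and 10.0% in hen2-4 and 10.12% and 10.4% in L57. LHCB4.1 held 7.59% and 7.43% in rrp4-2, 8.32% and 8.99% in hen2-4 and 6.0% and 6.1% in L57, without overlap between the groups. LHCB3 was at 9.28% and 9.90% in rrp4-2, 7.98% and 7.96% in hen2-4 and 10.3% and 10.6% in L57. LHCB6 was at 7.08% and 6.56% in rrp4-2, 6.65% and 6.54% in hen2-4 and 5.72% and 5.62% in L57.

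The other genes of the pathway were mixed. Of the 11 other light-harvesting genes, 4 were lower in rrp4-2 and 3 in hen2-4, with none higher, and the median log2 fold changes were -0.45 and -0.03. LHCB1.4, LHCB1.5, LHCA1 and LHCA4 had positive values in hen2-4 that did not pass the test (0.37, 0.23, 0.24 and 0.18), and so had LHCB4.3 in rrp4-2 (0.27). The largest change of the list was that of LHCB2.3. LHCB2.3, another LHCB2 gene, had 180.6 and 198.4 CPM in rrp4-2, 357.7 and 329.8 CPM in hen2-4 and 443.0 and 542.4 CPM in L57, and was lower in rrp4-2 against L57 (-1.38), in hen2-4 against L57 (-0.52) and in rrp4-2 against hen2-4 (-0.86). In chlorophyll synthesis 8 of 14 genes were lower in rrp4-2 and 7 of 14 in hen2-4, with none higher, beside 8.54% and 10.6% of all genes called lower. Of the 5 targeting genes 3 were lower in each mutant, and of the 4 genes of phosphorylation and quenching 2 were lower in rrp4-2 and 1 in hen2-4, with none higher. Of the 13 regulators 4 were higher and 3 lower in rrp4-2, and 1 higher and 3 lower in hen2-4, beside 18.0% and 19.7% of all genes called higher. CCA1 had 23.8 and 21.5 CPM in rrp4-2, 20.5 and 18.2 CPM in hen2-4 and 55.0 and 59.7 CPM in L57. LHY had 29.5 and 25.5 CPM in rrp4-2, 21.9 and 22.1 CPM in hen2-4 and 90.9 and 94.6 CPM in L57. These partner genes of the morning loop of the circadian clock were lower in rrp4-2 (-1.34 for CCA1 and -1.75 for LHY) and in hen2-4 (-1.57 and -2.07). LHY was named for its size after its values were seen.

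Unannotated RNAs lay near 3 of the LHCB genes, and an annotated noncoding RNA overlaps LHCB6. Features were looked for after the main values were seen. A de novo transcript within LHCB4.1 on the other strand (chr5:209566-210227, minus strand) had 307 and 366 counts in rrp4-2, 336 and 344 counts in hen2-4 and 44 and 60 counts in L57. In CPM this was 1.45 and 1.65 in rrp4-2, 1.54 and 1.56 in hen2-4 and 0.473 and 0.621 in L57. It was higher in both mutants, with a log2 fold change of 1.50 (SE 0.50) in each and edgeR adjusted p-values of 0.0494 for rrp4-2 and 0.0448 for hen2-4. It is counted apart from LHCB4.1, and its count came to at most 0.797% of the LHCB4.1 count of the same library. A second de novo RNA, 282 bases upstream of LHCB3 in the opposite direction (chr5:22036896-22037882, minus strand), had 197 and 256 counts in rrp4-2, 164 and 167 in hen2-4 and 7 and 8 in L57. The L57 libraries hold few counts, and the differences did not pass the test (3.71, edgeR adjusted p = 0.0622 for rrp4-2; 3.24, edgeR adjusted p = 0.0904 for hen2-4). The de novo RNA 144 bases upstream of LHCB5 in the opposite direction (chr4:6407595-6407862, minus strand) had at most 2 counts in any library and was not tested. The noncoding RNA AT1G05207, antisense to LHCB6, differed by 0.55 in rrp4-2 and 0.45 in hen2-4 and was not called. Because strand use in the counting is not given, reads of a gene and of its antisense partner cannot be told apart with certainty.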

How the data were processed

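The deposited table held estimated counts for 61786 transcripts in 16 libraries. Per the labels and the study's methods, the authors depleted rRNA from total RNA, made stranded paired-end libraries, trimmed reads with HOMER 4.11.1, mapped them with STAR 2.7.9a to TAIR10 keeping multimapped reads at 1 random place, and estimated counts with StringTie 2.1.4 over Araport11 and de novo transcripts. The authors' TPM table (46640 transcripts) served only to check column names, and 16 of 16 columns matched. The count column spelled rrpr4.1 was read as rrp4-2 replicate 1. Deposited positions of de novo transcripts were used as given.

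Transcripts were summed to 40421 genes and rounded to whole counts. Genes were filtered with filterByExpr, TMM-scaled and fitted in edgeR 4.0.16 (R 4.3.3) by quasi-likelihood over all 16 libraries with group as the only term (8 residual degrees of freedom). The test was two-sided with Benjamini-Hochberg adjustment, and the SE is the absolute log2 fold change over the square root of F. Other tools were DESeq2 1.42.0, Python 3.11.15, numpy 2.4.6, pandas 2.3.3, SciPy 1.17.1 and matplotlib 3.10.9. Scripts were tested on simulated data. Alternatives were DESeq2 size factors, its Wald test (p-values under 1e-20 written as 1e-20), no filter on low counts, organellar and rRNA features left out, a fit of only the 4 libraries of a comparison, the replicate number as a block, and each replicate left out. The members and gene lists were chosen with earlier results of these data known. Named genes were the 10 loci, the pair per list with the largest change in L57 against L26, the 5 most alike genes, and any gene a result turns on.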

Additional observations from a re-analysis of the deposited data

Results flagged for a closer look

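The effects of rrp4-2 and of hen2-4, each set against the same L57 libraries, differed by a direct test for 3 LHCB genes. The log2 difference of rrp4-2 against hen2-4 was -0.80 for LHCB2.2 (edgeR adjusted p = 0.0483), -0.64 for LHCB4.1 (edgeR adjusted p = 0.0015) and -0.38 for LHCB4.2 (edgeR adjusted p = 0.0408). LHCB4.1 kept its call without any single library, and the others lost it.

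The unannotated RNA antisense to LHCB4.1 lies outside the 10 genes and was above L57 in both mutants, by a log2 fold change of 1.50 in rrp4-2 and 1.50 in hen2-4 (edgeR adjusted p = 0.0494 and 0.0448). Its counts were 307 and 366 in rrp4-2, 336 and 344 in hen2-4 and 44 and 60 in L57.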

How the results depend on the processing

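For L26 against L6, L57 against L26 and L57 against DS all 10 genes were called in every fit without 1 library. Over such fits the count of called genes was 5 to 8 for S24 against DS, 4 to 6 for S72 against S24, 8 to 10 for L6 against S72, 0 to 1 for hen2-4 against L57, 3 to 7 for rrp4-2 against L57 and 1 for rrp4-2 against hen2-4. In S24 against DS the LHCB3 value was -1.26 to 0.01 without 1 library, with 0.01 without DS replicate 2. In the same comparison 5 genes were called without organellar and rRNA features (of all genes, 15381 of 27889). Also 5 were called with only the 4 libraries fitted (14445 of 23996). In hen2-4 against L57, 4 were called with DESeq2 size factors (of all genes, 9061 of 28824) and 4 with the DESeq2 Wald test (9764 of 28824). Without organellar and rRNA features 3 were called (8403 of 27889), and with only the 4 libraries 5 (11098 of 24468). In rrp4-2 against hen2-4, 1 was called with no filter (of all genes, 2103 of 39370) and 5 without organellar and rRNA features (2769 of 27889). With only the 4 libraries 9 were called (3503 of 25351), and the LHCB1 sum had -0.44 and the LHCB2 sum -0.77. In rrp4-2 against L57 the LHCB1 sum was -0.79 to -0.54 and the LHCB2 sum -1.16 to -0.86 without 1 library, and each passed the test in 1 of these 4 fits. The cause of these changes was not tested, except that fits without a library or with 4 libraries hold fewer samples.

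Deviations of same-numbered libraries correlated by -0.0471 to 0.091 over 28 pairs of groups. No pairing by replicate number was seen in these values, and a pairing limited to few genes was not tested. With a replicate block 106 of 108 values, those of 10 genes and 2 sums in 9 comparisons whether called or not, kept their direction and their side of the threshold, and LHCB2.2 lost its call in S24 against DS (-1.58, edgeR adjusted p = 0.0519) and in rrp4-2 against hen2-4 (-0.80, edgeR adjusted p = 0.0564). Counts of 16 to 80 per dry-seed library for 6 genes limit what can be seen there.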
